A study of Mus musculus with 15 samples.

Results

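The genes described here are 34 genes of the liver's stellate cells and of the fibrous matrix that those cells lay down. They were chosen by symbol: collagens, crosslinking enzymes, contractile proteins, growth factor receptors, matrix proteoglycans and glycoproteins, stellate cell identity genes, and matrix proteases with an inhibitor. All 34 were found among the 15302 genes of the count table, and all 34 passed the low-count filter that left 12274 genes for testing.

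RNA was sequenced from the livers of 15 wild-type mice in 3 groups of 5 libraries, named Vehicle, GDF15 and PairFed. GDF15 is a hormone of the TGF-beta superfamily that acts on a hindbrain receptor and lowers food intake. The PairFed arm therefore lets the injected hormone be compared both with free feeding and with a like food intake. All mice of the 3 groups were put on a MASH diet (a diet used to model metabolic dysfunction-associated steatohepatitis) and kept at about 29°C from 8 weeks of age. They were allotted at random, matched on body weight and composition, and housed singly. The GDF15 group received recombinant GDF15 under the skin each morning at 1 nmol/kg. The PairFed group was allotted each day as much food as GDF15 mice had consumed on the preceding day. Strain, sex, diet composition, treatment length and the injections of the PairFed group were not given in the sources used here. No group without the MASH diet is among these samples, so all values below are differences between livers on that diet.

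Hepatic stellate cells sit between hepatocytes and the sinusoidal endothelium and, when quiescent, store vitamin A as retinyl esters. On injury they turn into contractile myofibroblasts, which secrete fibrillar collagens, crosslink them, and release proteases and protease inhibitors that set how fast the scar is turned over. Portal fibroblasts and vascular smooth muscle also make many of these proteins, and basement membrane collagens come in large part from endothelial cells. In whole-liver RNA, fewer cells of a type and less RNA per cell cannot be told apart.

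Total counts ran from 8551557 to 12994187 per library, and hepatocyte, endothelial, Kupffer cell and stellate cell markers were present in every library. The 5 libraries above the widest gap in total count (10914914 to 12137462) were Vehicle 4 and PairFed 2 to 5, so depth and the PairFed group partly coincide. GDF15 1, the library with the lowest total count, was the lowest of all 15 libraries for 27 of the 34 genes, with a median 1.25 below the Vehicle mean on the log2 scale. Vehicle 1 was the highest of all 15 for 20 genes, with a median 0.48 above that mean. PairFed 2 was the lowest PairFed library for 28 genes and Vehicle 4 the lowest Vehicle library for 19. Values that moved far without GDF15 1, Vehicle 1 or PairFed 2 are given for the list and for several of its genes.

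**Figure D1:**
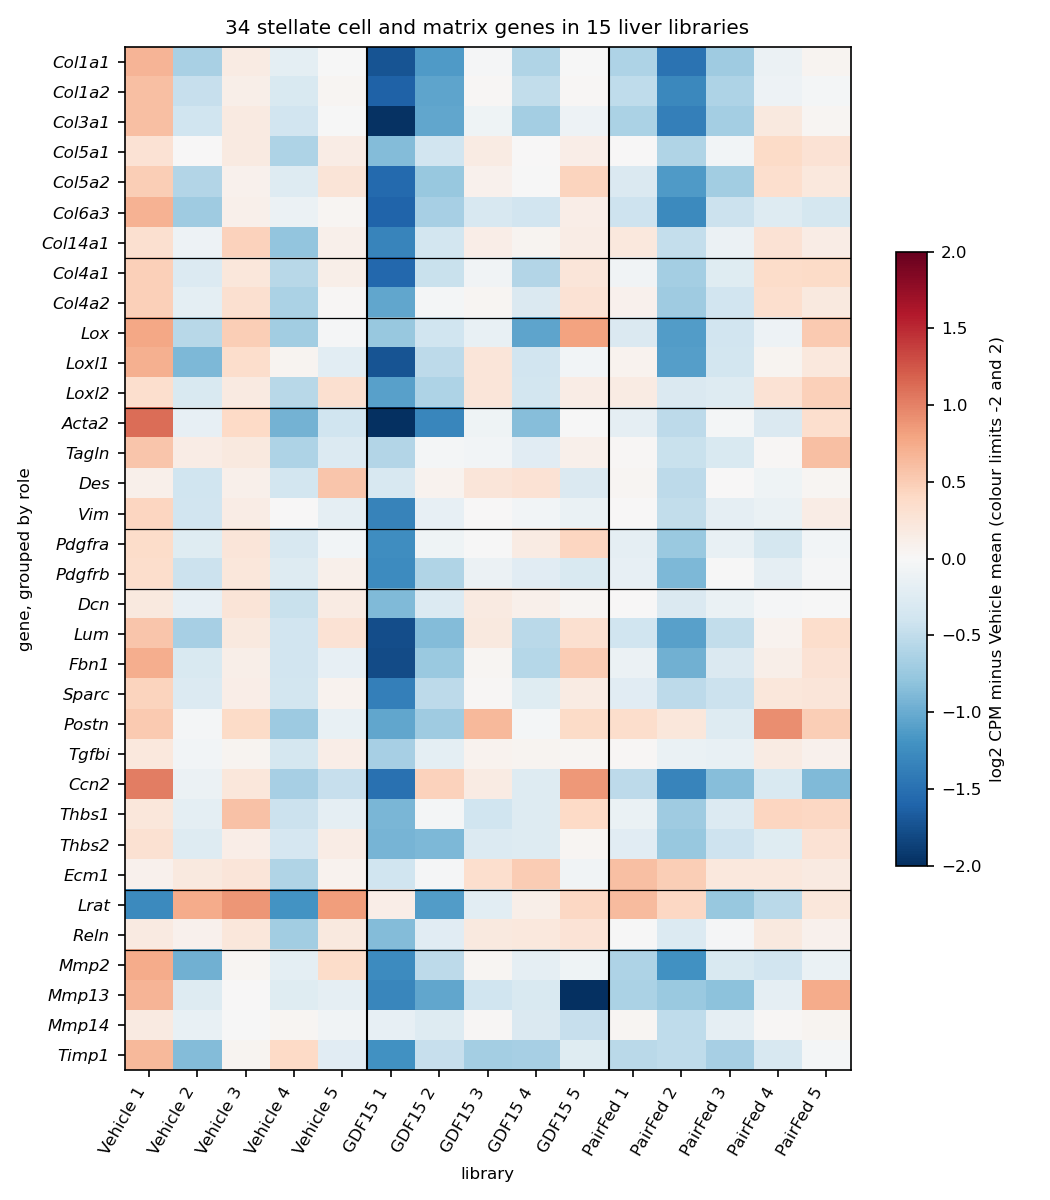
Heat map of log2 CPM minus the Vehicle mean for the 34 genes (rows, grouped by role) in the 15 libraries (columns, grouped by treatment). GDF15 1 is blue in most rows and Vehicle 1 is red in most rows, while Lrat does not follow the collagens.

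Against Vehicle, 32 of the 34 genes had a lower fitted level in GDF15 livers and 30 in PairFed livers, but no single gene passed the test. In edgeR's quasi-likelihood test with Benjamini-Hochberg adjustment over all 12274 genes, 0 of 34 had an adjusted p below 0.05 for GDF15 against Vehicle, where 2.9% of all genes passed. The count was also 0 of 34 for PairFed against Vehicle (0.285% of all genes) and 0 of 34 for GDF15 against PairFed (0.782%). A test for any difference among the 3 groups called 0 of 34 (2.71% of all genes), with the smallest adjusted p, 0.203, at Timp1. DESeq2 and limma-voom also called 0 of 34 in each of the 3 comparisons. Of all 12274 genes, DESeq2 called 642 for GDF15 against Vehicle, 340 for PairFed against Vehicle and 257 for GDF15 against PairFed. Limma-voom called 303, 40 and 75.

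At an unadjusted p below 0.05, 3 genes were lower in GDF15 than in Vehicle livers, namely Timp1, Mmp13 and Mmp14, where 7.54% of all genes were lower. None was higher, where 9.12% of all genes were. Between PairFed and Vehicle, 1 gene was lower, Ccn2 (8.25% of all genes), and 0 were higher (8.66%). Between GDF15 and PairFed, 0 were lower (6.31%) and 1, again Ccn2, was higher (7.01%). The 3 lower genes are 8.82% of the 34, near the background of all genes. With DESeq2, 4 genes were lower for GDF15 against Vehicle, beside 892 of 12274 genes, and 2 for PairFed against Vehicle, beside 1022. For GDF15 against PairFed, 1 was higher, beside 1590 genes in either direction. Limma-voom gave 3 lower genes for GDF15 against Vehicle, beside 888 of 12274. It gave 0 in the other 2 comparisons, beside 2156 and 1606 genes in either direction.

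The median log2 fold change of the 34 genes was -0.28 for GDF15 against Vehicle, beside -0.0046 over all genes tested. For PairFed against Vehicle it was -0.20, beside -0.0005, and for GDF15 against PairFed -0.16, beside 0.0007. Of all 12274 genes, 6277 had a fold change below 0 in the first comparison, 6153 in the second and 6114 in the third. Among the 34, the count below 0 in the third was 27. These 3 comparisons share their samples in pairs and are not independent of each other.

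The size of the shift depended on single libraries. Without GDF15 1, the median for GDF15 against Vehicle was -0.15, with 28 genes below 0. Without Vehicle 1 it was -0.17, and without GDF15 5 it was -0.47. For PairFed against Vehicle it was -0.05 without Vehicle 1, -0.07 without PairFed 2 and -0.29 without Vehicle 4. With a term for the 5 deeper libraries it was -0.01, with 18 genes below 0, and the median for GDF15 against PairFed was -0.35 with 30 below 0. For GDF15 against PairFed it was -0.01 without GDF15 1, -0.07 without PairFed 5, -0.08 without PairFed 4, and -0.25 without GDF15 5 or PairFed 2. With 1 surrogate variable in the fit, the medians against Vehicle were 0.10 for GDF15 and 0.08 for PairFed, so their direction turned; that variable was largest in GDF15 1.

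Group means followed one order in most genes. Vehicle had the highest mean CPM (counts scaled to a common library size, with TMM factors) in 29 of the 34 genes and GDF15 the lowest in 26. The order Vehicle, PairFed, GDF15 from high to low held for 23 genes and Vehicle, GDF15, PairFed for 6. Ecm1 was the 1 gene with its lowest mean in Vehicle. The spread within groups was wide beside these steps: the median coefficient of variation of the 34 genes was 29.8% in Vehicle, 35.1% in GDF15 and 26.5% in PairFed.

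**Figure D2:**
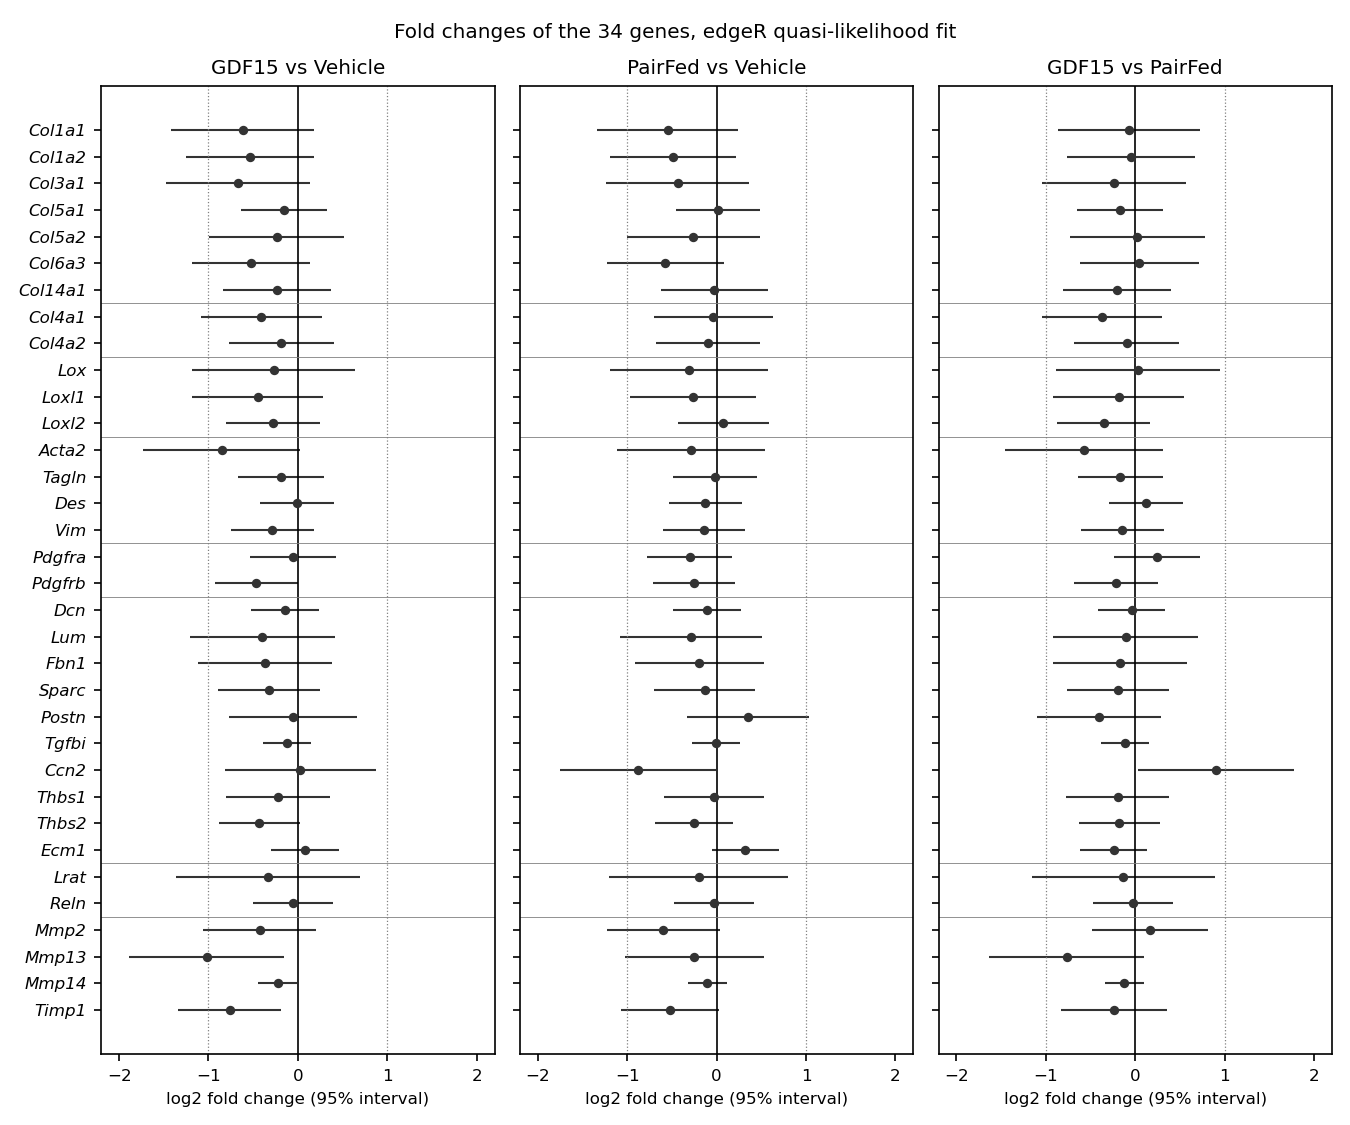
Log2 fold change (x axis) with its 95% interval for each of the 34 genes (y axis, grouped by role) in the 3 comparisons, from edgeR's quasi-likelihood fit; dotted lines mark a 2-fold change. Most points lie left of 0 in all 3 panels (32, 30 and 27 genes), and the intervals of 31, 33 and 33 genes hold 0.

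The matrix proteases and their inhibitor held the 3 genes with the smallest p for GDF15 against Vehicle. Timp1 encodes a secreted inhibitor of matrix metalloproteinases, Mmp13 the main interstitial collagenase of rodents, and Mmp14 a membrane-anchored metalloproteinase that activates the gelatinase encoded by Mmp2. The 150 bases before the RefSeq start site of these 3 genes, and of the collagen gene Col3a1 for contrast, are shown to set the core promoter letters of the 3 genes with the smallest p, none of which passed the adjusted test, beside those of an abundant scar collagen. Capitals mark matches, on either strand, to the TATA box letters TATAAA, the CCAAT box, the GC box letters GGGCGG and the AP-1 letters TGANTCA. All are from RefSeq on GRCm38.p6, plus strand, ending at the base before the start site.
Timp1 (chrX:20870016-20870165): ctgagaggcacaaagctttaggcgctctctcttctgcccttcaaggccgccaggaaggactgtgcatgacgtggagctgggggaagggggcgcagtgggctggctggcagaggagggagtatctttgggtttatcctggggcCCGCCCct
Mmp13 (chr9:7272364-7272513): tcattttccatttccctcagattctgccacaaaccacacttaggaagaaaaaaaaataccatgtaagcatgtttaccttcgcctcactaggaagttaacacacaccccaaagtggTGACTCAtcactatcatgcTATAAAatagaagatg
Mmp14 (chr14:54431448-54431597): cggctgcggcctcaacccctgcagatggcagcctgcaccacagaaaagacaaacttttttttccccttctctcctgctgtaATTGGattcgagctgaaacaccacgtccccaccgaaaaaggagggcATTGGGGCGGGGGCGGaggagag
Col3a1 (chr1:45311388-45311537): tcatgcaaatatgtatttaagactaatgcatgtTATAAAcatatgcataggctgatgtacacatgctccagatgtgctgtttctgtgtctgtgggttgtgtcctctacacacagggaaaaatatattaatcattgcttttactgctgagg
Mmp13 held a TATAAA run that began 16 bases before the start and a TGANTCA match 35 bases before it. Mmp14 held 2 CCAAT matches on the minus strand and 2 GGGCGG runs, of which the nearer CCAAT match and the first GGGCGG run overlap. Timp1 held a GC box on the minus strand 8 bases before its start, and Col3a1 a TATAAA run 117 bases before its own. A match describes letters only and names no factor.

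Promoter entries existed for 21 of the 34 genes, in 22 windows of 250 bases before the start. The entries did not include Pdgfrb, Col14a1, Loxl2, Thbs1, Lox, Lum, Dcn, Loxl1, Ccn2, Col5a2, Mmp2, Col1a1 and Tagln. TATAAA was found in 6 of the 22 windows, against 12.4% of 32817 mouse promoter windows of the same length, and GGGCGG in 11, against 32.7%. CCAAT was found in 8 windows, against 33.8%, and TGANTCA in 2 (Ecm1 and Mmp13), against 6.75%. GGAATG, a TEAD motif, was found in 4 windows, against 12.6%, and CAGACA, a SMAD motif, in 7, against 17.1%.

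Timp1 stood at 4.65, 1.51, 3.01, 3.88 and 2.46 CPM in Vehicle 1 to 5, at 1.15, 2.06, 1.75, 1.76 and 2.42 CPM in GDF15 1 to 5, and at 1.94, 1.99, 1.77, 2.30 and 2.83 CPM in PairFed 1 to 5. Vehicle 2 lay among the treated libraries, so the groups overlapped, while the other 4 Vehicle libraries were above all GDF15 libraries. On the log2 scale the difference was -0.76 ± 0.27 (SE) for GDF15 against Vehicle (edgeR, adjusted p = 0.150), -0.52 ± 0.26 for PairFed against Vehicle (adjusted p = 0.309) and -0.24 ± 0.28 for GDF15 against PairFed (adjusted p = 0.774). Without GDF15 1 the third was -0.12, and without Vehicle 1 the second was -0.34. Over the 25 alternatives the adjusted p of the first ranged from 0.0516, without Vehicle 2, to 0.450. Timp1 lies within Syn1 on the opposite strand. The library kit was directional, but the strand setting of the counting was not given, so reads of the 2 genes may not have been told apart.

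Mmp13 was scarce, at 3.07, 1.51, 1.87, 1.54 and 1.61 CPM in Vehicle, 0.639, 0.803, 1.36, 1.47 and 0.315 CPM in GDF15, and 1.12, 1.03, 0.964, 1.61 and 3.22 CPM in PairFed. Every GDF15 library was below every Vehicle library, though GDF15 4 and Vehicle 2 nearly touched; the lowest value rested on 3 counts. Of all genes, 3.99% had GDF15 and Vehicle groups that did not overlap, and 1.51% did so with GDF15 lower; Mmp13 was the 1 of 34 that did. The fitted log2 difference was -1.02 ± 0.41 for GDF15 against Vehicle (adjusted p = 0.212), -0.25 ± 0.37 for PairFed against Vehicle (adjusted p = 0.770) and -0.77 ± 0.41 for GDF15 against PairFed (adjusted p = 0.437). No member's groups were apart between PairFed and Vehicle (3.92% of all genes) or between GDF15 and PairFed (2.86%).

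Mmp14 varied least of the 34 genes within Vehicle, at 64.8, 51.5, 56.7, 58.8 and 54.5 CPM. GDF15 livers stood at 50.7, 47.9, 57.9, 46.5 and 41.6 CPM and PairFed livers at 58.9, 40.1, 50.4, 57.9 and 59.1 CPM. GDF15 3 was level with the Vehicle libraries and the other 4 GDF15 libraries were below all of Vehicle. The log2 fold change was -0.23 ± 0.10 for GDF15 against Vehicle (adjusted p = 0.284), -0.10 ± 0.10 for PairFed against Vehicle and -0.12 ± 0.10 for GDF15 against PairFed. Mmp2, a gelatinase of activated stellate cells, had means of 11.8 ± 4.84 (SD, n = 5), 8.63 ± 2.68 and 7.75 ± 2.05 CPM in Vehicle, GDF15 and PairFed, with log2 fold changes of -0.43 ± 0.30 and -0.59 ± 0.29 against Vehicle.

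The values of these 3 genes were smaller, Mmp14 without GDF15 1 aside, when an extreme library was left out. Without GDF15 1 the fold changes were -0.65 for Timp1 (adjusted p = 0.311), -0.92 for Mmp13 (adjusted p = 0.370) and -0.24 for Mmp14 (adjusted p = 0.377). Without Vehicle 1 they were -0.58 (adjusted p = 0.379), -0.79 (adjusted p = 0.462) and -0.18 (adjusted p = 0.535). For PairFed against Vehicle, Mmp13 was at -0.02 and Mmp14 at -0.06 without Vehicle 1, and at -0.13 and -0.02 without PairFed 2. For GDF15 against Vehicle, 0 of the 34 genes were lower at an unadjusted p below 0.05 without Vehicle 1. Of all genes tested there, 766 of 12334 were lower. The count was 2 without Vehicle 3, GDF15 1, GDF15 2 or PairFed 3, beside 796, 753, 759 and 936 of all genes. It was 5 without Vehicle 4 or GDF15 3 (1028 of 12316 and 1020 of 12344 genes) and 7 without Vehicle 2 (996 of 12364).

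**Figure D3:**
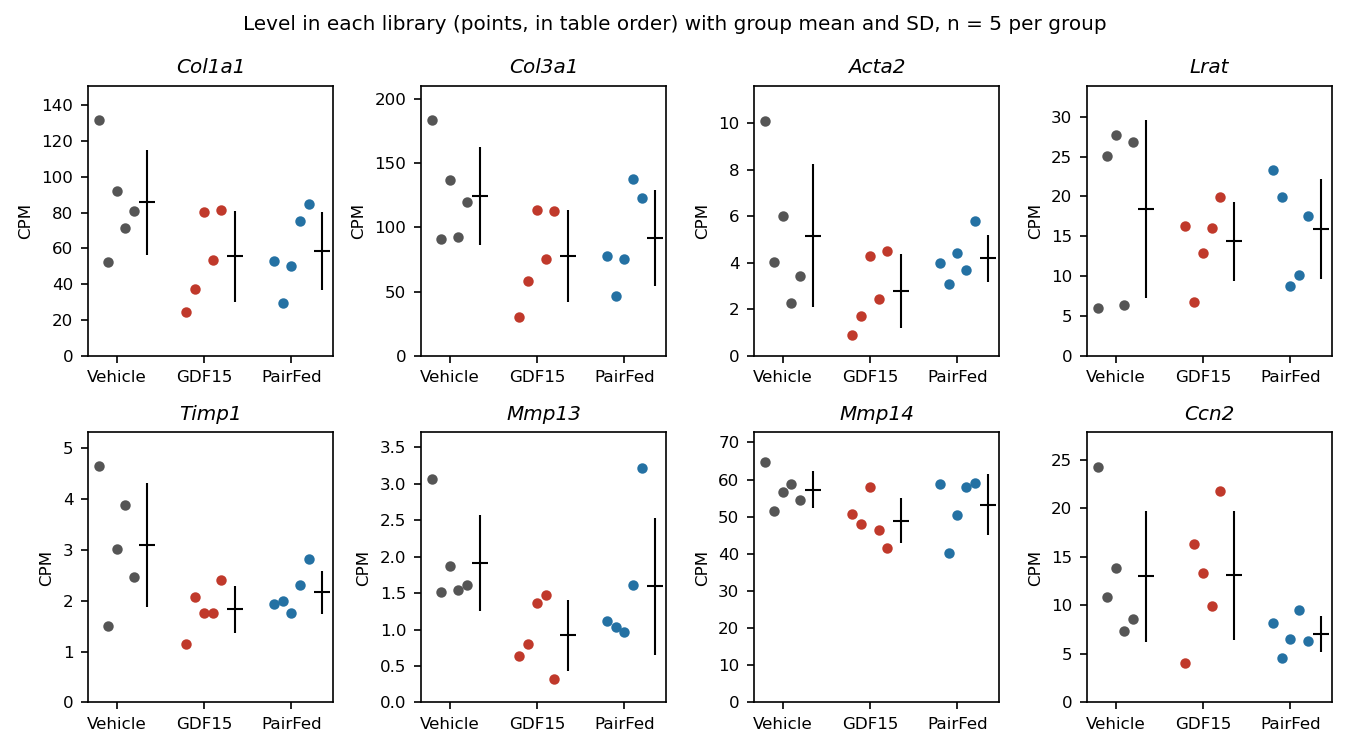
CPM (y axis) in each library (points) with the group mean and SD (bars, n = 5) for 8 of the genes. Mmp13 has no overlap between Vehicle and GDF15, and Ccn2 sits below 10 CPM in every PairFed library.

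The 7 fibrillar and associated collagens had a median log2 fold change of -0.53 for GDF15 against Vehicle, -0.43 for PairFed against Vehicle and -0.07 for GDF15 against PairFed. Col1a1 encodes the major chain of type I collagen, the bulk of scar matrix. It stood at 132, 52.2, 91.9, 71.5 and 81.1 CPM in Vehicle, 24.7, 37.4, 80.5, 53.6 and 81.6 CPM in GDF15, and 53.2, 29.3, 50.1, 75.2 and 84.7 CPM in PairFed. The groups overlapped, with GDF15 1, PairFed 2 and GDF15 2 lowest and Vehicle 1 highest. On the log2 scale the difference was -0.62 ± 0.37 for GDF15 against Vehicle (adjusted p = 0.440), -0.55 ± 0.36 for PairFed against Vehicle (adjusted p = 0.471) and -0.07 ± 0.37 for GDF15 against PairFed (adjusted p = 0.959). Without GDF15 1, the first was -0.43 and the third 0.11; the second was -0.34 without Vehicle 1, and the third -0.24 without PairFed 2.

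Col3a1, the chain of type III collagen that is laid down early in scars, stood at 183, 90.8, 137, 92.2 and 119.9 CPM in Vehicle, 30.3, 58.3, 113, 75.1 and 112 CPM in GDF15, and 77.7, 46.6, 75.4, 138 and 123 CPM in PairFed. Again GDF15 1 and PairFed 2 were lowest, and 3 GDF15 libraries lay below all of Vehicle. The fitted log2 difference was -0.67 ± 0.37 for GDF15 against Vehicle (adjusted p = 0.404), -0.43 ± 0.37 for PairFed against Vehicle and -0.24 ± 0.37 for GDF15 against PairFed. Without GDF15 1 the first was -0.47 and the third -0.04, and without Vehicle 1 the second was -0.25. The other 5 genes of the group, Col1a2, Col5a1, Col5a2, Col6a3 and Col14a1, had log2 fold changes of -0.53 ± 0.33, -0.16 ± 0.23, -0.24 ± 0.35, -0.53 ± 0.31 and -0.23 ± 0.28 for GDF15 against Vehicle. Their values for PairFed against Vehicle ran from -0.57 ± 0.30 in Col6a3 to 0.02 ± 0.22 in Col5a1.

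The 2 chains of type I collagen, which assemble in a fixed proportion, kept a narrow ratio of counts while their levels moved several-fold between libraries. The Col1a1 to Col1a2 ratio was 1.06 to 1.31 in Vehicle, 1.12 to 1.19 in GDF15 and 1.06 to 1.29 in PairFed, although Col1a1 itself ranged from 24.7 to 132 CPM. The Col3a1 to Col1a1 ratio was 1.29 to 1.74, 1.23 to 1.56 and 1.45 to 1.83. Neither ratio separated the groups.

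Basement membrane collagen was less even. Col4a1 and Col4a2 encode the paired chains of type IV collagen and lie head to head on chromosome 8, where their annotated starts overlap by 85 bases. Col4a1 stood at 93.6, 55.2, 78.6, 45.3 and 72.8 CPM in Vehicle, 22.4, 49.1, 63.7, 44.6 and 78.9 CPM in GDF15, and 63.9, 41.6, 56.2, 86.7 and 87.1 CPM in PairFed. GDF15 1, PairFed 2 and GDF15 4 lay below every Vehicle library and the groups otherwise overlapped. The log2 fold change was -0.41 ± 0.31 for GDF15 against Vehicle (adjusted p = 0.559), -0.04 ± 0.31 for PairFed against Vehicle and -0.37 ± 0.31 for GDF15 against PairFed. Without GDF15 1 the first was -0.22 and the third -0.18, and the second was 0.10 without Vehicle 1 and 0.09 without PairFed 2. Col4a2 had values of -0.19 ± 0.27, -0.09 ± 0.27 and -0.10 ± 0.27.

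The Col4a1 to Col4a2 ratio within a library was 1.83, 1.73, 1.71, 1.93 and 1.94 in Vehicle, 1.26, 1.37, 1.69, 1.49 and 1.76 in GDF15, and 1.64, 1.86, 2.01, 1.86 and 2.07 in PairFed. GDF15 5 reached into the Vehicle range and PairFed range, and GDF15 3, at 1.69, into the PairFed range. Apart from GDF15 5, the other 4 GDF15 libraries were below every Vehicle library. The ratio was not tested. Reads where the starts overlap cannot be assigned by position alone. The library kit was directional, but the strand setting of the counting was not given.

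**Figure D4:**
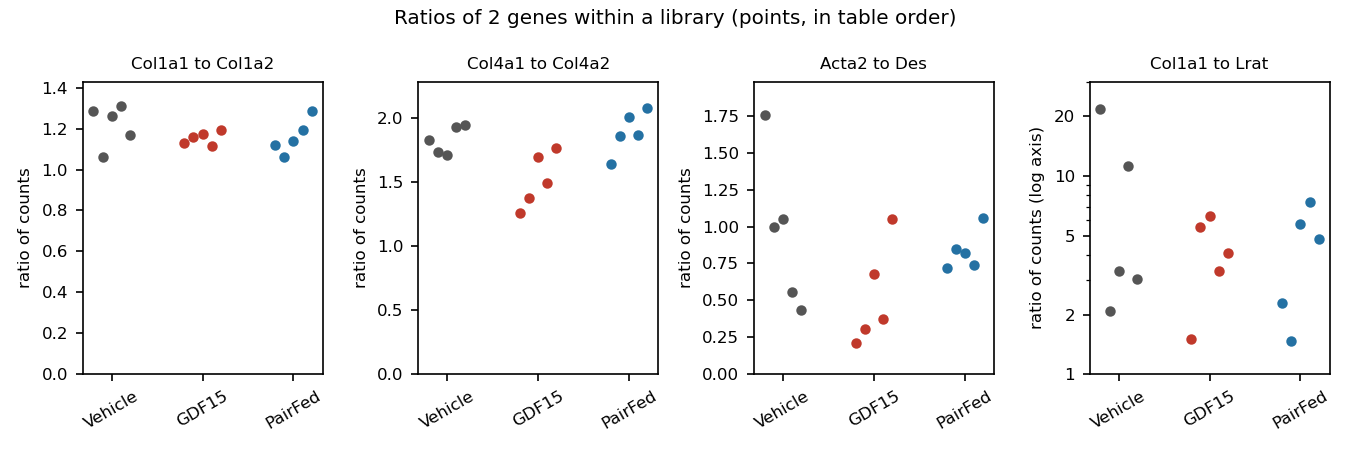
Ratio of the counts of 2 genes within a library (points) by group, with a log axis for Col1a1 to Lrat. Col1a1 to Col1a2 stays between 1.06 and 1.31 in all 15 libraries, whereas Col1a1 to Lrat runs from 1.47 to 21.8.

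Of the crosslinking enzymes, which oxidise lysines so that collagen and elastin fibres bond, none stood out. Lox had means of 1.55 ± 0.762, 1.26 ± 0.809 and 1.23 ± 0.570 CPM (SD, n = 5) in Vehicle, GDF15 and PairFed. Loxl1 had 6.79 ± 2.71, 4.91 ± 2.13 and 5.68 ± 1.82 CPM, and Loxl2 had 8.84 ± 2.34, 7.17 ± 2.67 and 9.24 ± 2.15 CPM. The adjusted p ranged from 0.558 to 0.814 for GDF15 against Vehicle.

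Among the contractile and filament genes, Acta2, the smooth muscle actin that defines myofibroblasts, had the widest difference. It stood at 10.1, 4.02, 6.03, 2.27 and 3.42 CPM in Vehicle, 0.894, 1.72, 4.29, 2.45 and 4.52 CPM in GDF15, and 3.98, 3.10, 4.42, 3.68 and 5.81 CPM in PairFed. Vehicle 1 was the highest and GDF15 1 the lowest, 11.3-fold apart, and the groups overlapped. The value in GDF15 1 rested on 7 counts. The log2 fold change was -0.85 ± 0.41 for GDF15 against Vehicle (adjusted p = 0.319), -0.28 ± 0.39 for PairFed against Vehicle and -0.57 ± 0.42 for GDF15 against PairFed. Without Vehicle 1 the first was -0.46 (adjusted p = 0.663) and the second 0.11, and without GDF15 1 the first was -0.65 and the third -0.36.

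Des, the intermediate filament protein of stellate and muscle cells, stood at 5.74, 4.02, 5.72, 4.10 and 7.92 CPM in Vehicle, 4.22, 5.62, 6.33, 6.57 and 4.31 CPM in GDF15, and 5.51, 3.65, 5.38, 4.99 and 5.50 CPM in PairFed. No group was apart from another, and GDF15 1 was not the lowest. On the log2 scale the difference was -0.01 ± 0.20 for GDF15 against Vehicle, with a 95% interval of -0.42 to 0.41, so a change beyond about that size in either direction lies outside it. It was -0.13 ± 0.19 for PairFed against Vehicle and 0.12 ± 0.20 for GDF15 against PairFed. Vim, a filament of mesenchymal cells in general, had -0.29 ± 0.22 and Tagln, an actin-binding protein of smooth muscle and myofibroblasts, -0.19 ± 0.23 for GDF15 against Vehicle.

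The ratio of Acta2 to Des, a measure of contractile against filament transcripts, was 0.432 to 1.76 in Vehicle, 0.212 to 1.05 in GDF15 and 0.722 to 1.06 in PairFed. The groups overlapped, and the Vehicle range contained the whole PairFed range.

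The receptors for platelet-derived growth factor drive proliferation and migration of stellate cells, with Pdgfrb as the chief one. Pdgfrb stood at 31.9, 18.5, 29.3, 20.7 and 26.9 CPM in Vehicle, 10.3, 16.3, 23.1, 21.4 and 20.2 CPM in GDF15, and 22.1, 13.3, 24.7, 21.9 and 24.6 CPM in PairFed. GDF15 1, PairFed 2 and GDF15 2 were the 3 lowest libraries and the groups overlapped. The fitted log2 difference was -0.46 ± 0.22 for GDF15 against Vehicle (adjusted p = 0.303), -0.25 ± 0.21 for PairFed against Vehicle and -0.21 ± 0.22 for GDF15 against PairFed; without GDF15 1 the first was -0.32 and the third -0.07, and without Vehicle 1 the second was -0.16. Pdgfra had -0.06 ± 0.23, -0.30 ± 0.23 and 0.24 ± 0.23.

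Of the 2 identity genes, Lrat did not follow the collagens across libraries. Lrat makes the retinyl esters that quiescent stellate cells store. It stood at 6.04, 25.0, 27.8, 6.37 and 26.9 CPM in Vehicle, 16.4, 6.77, 12.9, 16.1 and 20.0 CPM in GDF15, and 23.3, 19.9, 8.76, 10.2 and 17.5 CPM in PairFed. Vehicle itself fell into a low pair, Vehicle 1 and 4, and 3 high libraries, which together spanned the range of both other groups. The log2 fold change was -0.33 ± 0.47 for GDF15 against Vehicle (adjusted p = 0.787), -0.20 ± 0.46 for PairFed against Vehicle and -0.13 ± 0.47 for GDF15 against PairFed. Without Vehicle 1 the first was -0.56 and the second -0.42. Its interval for GDF15 against Vehicle, -1.36 to 0.69, reached past 2-fold lower.

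Vehicle 1 thus joined the highest Col1a1 of all libraries with the lowest Lrat, and its Col1a1 to Lrat ratio of counts was 21.8. The ratio was 11.2 in Vehicle 4 and 2.08 to 3.31 in the other 3 Vehicle libraries, 1.51 to 6.26 in GDF15 and 1.47 to 7.37 in PairFed. The 2 high ratios were both in Vehicle, and the 3 lower Vehicle libraries lay inside the range of both other groups. Reln, a secreted glycoprotein that marks stellate cells in liver, was lowest in GDF15 1 and next lowest in Vehicle 4, and had means of 52.3 ± 11.9, 50.0 ± 14.2 and 51.1 ± 6.01 CPM and log2 fold changes between -0.06 and -0.03 in the 3 comparisons, with SE of 0.21.

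Of the 10 proteoglycans and matrix glycoproteins, Ccn2 had the largest difference. It encodes connective tissue growth factor, a matricellular target of TGF-beta and of YAP. Ccn2 stood at 24.2, 10.9, 13.8, 7.40 and 8.56 CPM in Vehicle, 4.09, 16.3, 13.3, 9.90 and 21.8 CPM in GDF15, and 8.16, 4.61, 6.51, 9.52 and 6.36 CPM in PairFed. All 5 PairFed libraries were below 10 CPM, while Vehicle and GDF15 both spread from low to high. GDF15 1, the low library, was the only GDF15 library to fall under the PairFed values, and the other 4 were above all 5 of them.

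The log2 fold change of Ccn2 was -0.88 ± 0.40 for PairFed against Vehicle (adjusted p = 0.289), 0.91 ± 0.41 for GDF15 against PairFed (adjusted p = 0.360) and 0.03 ± 0.39 for GDF15 against Vehicle (adjusted p = 0.983). Without GDF15 1, GDF15 against PairFed was 1.12 (adjusted p = 0.238), and without Vehicle 1, PairFed against Vehicle was -0.52 (adjusted p = 0.556). The first 2 comparisons share the PairFed libraries, so they are not separate evidence. Over its alternatives, the adjusted p of GDF15 against PairFed ranged from 0.0575 to 1.00.

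Ecm1, an extracellular matrix protein that hepatocytes also make, ran the other way from most of the set. Its means were 106 ± 21.7, 112 ± 27.5 and 133 ± 18.5 CPM in Vehicle, GDF15 and PairFed, with a log2 fold change of 0.32 ± 0.18 for PairFed against Vehicle (adjusted p = 0.368). The small leucine-rich proteoglycans Dcn and Lum, which space collagen fibrils, had -0.15 ± 0.18 and -0.40 ± 0.38 for GDF15 against Vehicle. Fbn1, a microfibril protein, had -0.36 ± 0.35, and Sparc, a collagen-binding glycoprotein, -0.33 ± 0.26.

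Thbs1 and Thbs2, the thrombospondins, had -0.22 ± 0.28 and -0.43 ± 0.22. Tgfbi, a TGF-beta-induced adhesion protein, had -0.12 ± 0.13. Postn, a matricellular protein of injured tissue, had -0.05 ± 0.33 for GDF15 against Vehicle and 0.35 ± 0.32 for PairFed against Vehicle, the largest positive value of the 34 in that comparison. None of these reached an adjusted p below 0.3.

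Per kilobase of transcript, the scale on which genes can be compared, Dcn was the most abundant of the 34 in Vehicle, at 109 CPM per kb. Ecm1 followed at 55.9, Sparc at 38.6, Tgfbi at 28.6 and Col3a1 at 22.4 CPM per kb. Col1a1 was at 14.4, Lrat at 3.44, Timp1 at 3.51 and Acta2 at 2.54 CPM per kb, and Lox was the lowest at 0.327. Depth limited the low end: over all 15 libraries Lox had 213 counts, Mmp13 242 and Timp1 385, against 28917 for Dcn.

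How much change could have been missed is set by the intervals. For GDF15 against Vehicle, the 95% interval of the fold change lay within 2-fold either way for 20 of the 34 genes, reached 2-fold lower for 14 and reached 2-fold higher for 0. For PairFed against Vehicle the counts were 21, 12 and 1, and for GDF15 against PairFed 27, 6 and 1. A 2-fold lower level in GDF15 livers thus lay within the interval for 14 genes, among them Col1a1, Col3a1, Acta2 and Mmp13.

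Levels of other cell types' markers moved between the same libraries. The endothelial marker score (11 of 11 markers tested, as mean log2 CPM minus the Vehicle mean) ran from -0.81 to 0.33 in Vehicle, -1.20 to 0.69 in GDF15 and -0.31 to 0.83 in PairFed. GDF15 1 had the lowest value and Vehicle 4 the next. Summed endothelial markers ran from 134 to 229, 92.4 to 277 and 169 to 306 CPM in the 3 groups, and none of the 11 was at 0 in a group. Kupffer cell markers were also lowest in GDF15 1, at -0.77.

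Over all genes, 2.9% passed the adjusted test for GDF15 against Vehicle and 0.285% for PairFed against Vehicle. Markers of recruited monocytes and lipid-associated macrophages were below 0 in 12 of 12 genes for GDF15 against Vehicle (median log2 fold change -0.53, 1 passing). They were also below 0 in 12 of 12 for PairFed against Vehicle (median -0.58, 0 passing). Their summed level ran from 475 to 992 CPM in Vehicle, 369 to 633 in GDF15 and 450 to 655 in PairFed. Spp1, which is also among the bile duct markers below, had means of 295, 184 and 196 CPM in Vehicle, GDF15 and PairFed. T and NK cell markers had medians of -1.47 and -0.95, with 2 and 0 of 4 tested genes passing, at summed levels of at most 10.2 CPM. Hepatocyte markers were above 0 in 8 of 8 genes for GDF15 against Vehicle (median 0.24, 2 passing, where 2.9% of all genes passed). The 2 were Cps1 (0.76) and Ass1 (0.75), and the others ran from 0.08 in Ttr to 0.26 in Alb. Hepatocyte marker sums were 80186 to 99990 CPM in Vehicle and 93715 to 120755 in GDF15. Immediate-early genes had a median of 0.96 for GDF15 against Vehicle: 13 of 18 were higher at an unadjusted p below 0.05 (beside 9.12% of all genes) and 0 passed the adjusted test. Stellate markers, of which 4 of 7 tested are among the 34 genes, were below 0 in 7 of 7 for GDF15 against Vehicle (median -0.21) and in 5 of 7 for PairFed against Vehicle (median -0.08). Bile duct markers were below 0 in 6 of 7 genes for GDF15 against Vehicle (median -0.27, 0 passing) and in 7 of 7 for PairFed against Vehicle (median -0.60, 1 passing, the duct transcription factor Sox9, beside 0.285% of all genes). B and plasma cell markers had medians of -1.29 and -0.54 over 4 tested genes, with 0 passing. Endothelial markers were above 0 in 11 of 11 genes for PairFed against Vehicle (median 0.43, 0 passing) and in 7 of 11 for GDF15 against Vehicle (median 0.06). The part of these other cells and of RNA handling in the matrix gene values was not tested beyond one covariate.

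**Figure D5:**
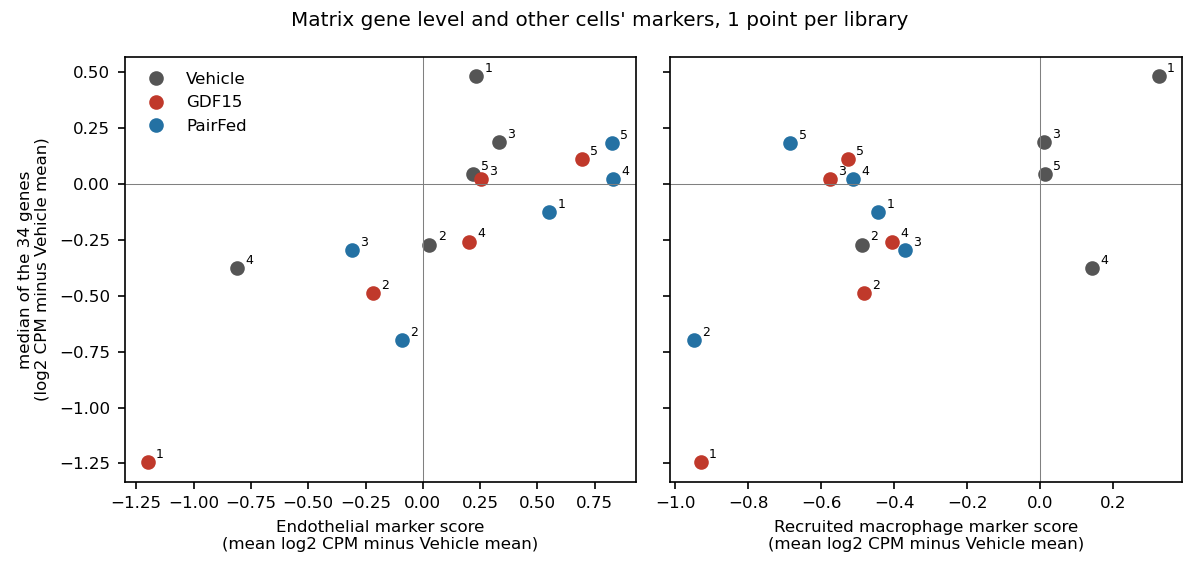
Median of the 34 genes in a library (y axis, log2 CPM minus the Vehicle mean) against the endothelial marker score (left) and the recruited macrophage marker score (right), 1 numbered point per library. GDF15 1 is the lowest point of both panels, at an endothelial score of -1.20 and a median of -1.25.

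That covariate moved values in all 3 comparisons. With the endothelial score in the fit, the median log2 fold change of the 34 genes was -0.32 for GDF15 against Vehicle, -0.40 for PairFed against Vehicle and 0.05 for GDF15 against PairFed, where 10 genes rather than 27 were below 0. The counts lower at an unadjusted p below 0.05 were then 14 and 19 of 34 against Vehicle, beside 1134 and 1477 of all 12274 genes. Sparc passed the adjusted test for PairFed against Vehicle (log2 fold change -0.40, adjusted p = 0.0486), where 452 genes passed in all. A score made from these libraries is not independent of the genes fitted with it.

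Of the other genes of the fibrosis pathways, 3 passed the adjusted test, all for GDF15 against Vehicle, where 2.9% of all genes passed. The TGF-beta pathway list covers ligands, receptors, SMADs, latent binding proteins and targets. Of its 28 tested genes, 1 passed the adjusted test for GDF15 against Vehicle, and 0 passed in the other comparisons. Inhba, the activin A subunit, fell by 0.75 on the log2 scale (SE 0.20, adjusted p = 0.0495), from 12.9 ± 3.61 to 7.65 ± 1.22 CPM, and stood at 7.38 ± 2.23 CPM in PairFed (log2 fold change -0.82 ± 0.20 against Vehicle, adjusted p = 0.0735). That call held in 9 of 26 alternatives, with an adjusted p from 0.0122 to 0.132. Tgfb1, the ligand itself, had -0.42 ± 0.13 for GDF15 against Vehicle (adjusted p = 0.0901). Itgav, an integrin that activates TGF-beta, had -0.19 ± 0.07 for PairFed against Vehicle. Itgb8 and Tgfbr2 had the smallest p for GDF15 against PairFed, at 1.38 ± 0.37 (adjusted p = 0.0969) and -0.32 ± 0.10 (adjusted p = 0.175).

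Of 14 tested PDGF ligands and stellate mitogens, 2 rose in GDF15 against Vehicle and 0 passed in the other comparisons. Fgf1, a fibroblast growth factor, rose from 60.8 to 90.9 CPM, a step of 0.58 ± 0.12 on the log2 scale (adjusted p = 0.0121). PairFed stood at 72.9 CPM, and the gene passed in 26 of 26 alternatives. Vegfa, the main angiogenic factor, rose from 151 to 202 CPM (0.42 ± 0.11, adjusted p = 0.0430), with 184 CPM in PairFed, and passed in 12 of 26 alternatives, with an adjusted p of up to 0.150. Pdgfc had -0.71 ± 0.18 for PairFed against Vehicle (adjusted p = 0.0740). Agtr1a, an angiotensin receptor, had 0.25 ± 0.08 there, and Pdgfa had -0.24 ± 0.12 for GDF15 against PairFed.

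The other 9 lists had 0 genes past edgeR's adjusted threshold in any comparison. At an unadjusted p below 0.05 for GDF15 against Vehicle, 1 of the other collagens was higher and 1 lower. The counts lower there were 2 of 26 matrix glycoproteins, 1 of 19 collagen processing genes, 3 of 14 YAP and SRF targets, 1 of 15 proteases, 1 of 19 quiescent stellate, 2 of 8 portal fibroblast, 0 of 6 smooth muscle and 0 of 5 mesothelial genes, beside 7.54% of all genes. Among 11 other collagens the median log2 fold change for GDF15 against Vehicle was -0.17, and Col5a3 had -0.29 ± 0.11 (adjusted p = 0.193), Col18a1 0.16 ± 0.08 (adjusted p = 0.289), Col15a1 -0.43 ± 0.20 for PairFed against Vehicle, and Col12a1 -0.34 ± 0.20 for GDF15 against PairFed. Among 26 other matrix glycoproteins and proteoglycans, 23 were below 0 in each comparison with Vehicle, at medians of -0.22 and -0.21, beside 13 of 26 for GDF15 against PairFed. Of the basement membrane nidogens, Nid1 had -0.69 ± 0.30 for GDF15 and Nid2 -0.54 ± 0.17 for PairFed against Vehicle. Spon2 had -0.71 ± 0.29 for GDF15, Mfap4 -0.78 ± 0.31 for PairFed, and Vtn 0.15 ± 0.08 for GDF15 against PairFed.

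Of 19 collagen processing genes, 14 and 15 were below 0 against Vehicle. P4ha1, a prolyl hydroxylase subunit that stabilises the collagen helix, had the smallest p in both: -0.40 ± 0.12 for GDF15 (adjusted p = 0.0894) and -0.45 ± 0.12 for PairFed (adjusted p = 0.0910). The lysyl oxidase family member Loxl3 had -0.36 ± 0.19 and -0.58 ± 0.19. For GDF15 against PairFed, Colgalt1 had -0.27 ± 0.08 and Adamts14 0.48 ± 0.22. Of 15 other proteases and inhibitors, 11 and 13 were below 0. Plau, the urokinase, had -0.87 ± 0.32 and Adamts1 -0.53 ± 0.25 for GDF15, Adamts5 -0.59 ± 0.20 and Timp2 -0.44 ± 0.20 for PairFed, and Mmp19 0.22 ± 0.08 and Mmp15 -0.25 ± 0.11 for GDF15 against PairFed.

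Of 14 YAP and SRF targets, 8 and 10 were below 0 against Vehicle. Tpm1, a tropomyosin, had -0.28 ± 0.08 (adjusted p = 0.0811) and Cnn2, a calponin, -0.51 ± 0.19 for GDF15 against Vehicle, with -0.25 ± 0.08 and -0.37 ± 0.19 against PairFed. Ankrd1 had -0.96 ± 0.40 and Tpm2 0.18 ± 0.14 for PairFed against Vehicle. Ankrd1, like Ccn2 a YAP target, had group means of 1.41, 1.06 and 0.721 CPM in Vehicle, GDF15 and PairFed.

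Markers of the fibrogenic cell types themselves gave no call. Of 19 tested quiescent stellate markers, 12 and 9 were below 0 against Vehicle, with Cygb at -0.31 ± 0.15 and Pth1r at -0.25 ± 0.13 for GDF15, Tcf21 at -0.68 ± 0.23 for PairFed, and Pth1r at -0.42 ± 0.13 and Adamtsl2 at 0.74 ± 0.30 for GDF15 against PairFed. Of 8 portal fibroblast markers, 6 and 5 were below 0. Entpd2 had -0.56 ± 0.17 for GDF15 against Vehicle (adjusted p = 0.0928) and -0.59 ± 0.17 against PairFed, Thy1 -0.90 ± 0.32 against Vehicle, Ntrk2 0.81 ± 0.33 against PairFed, and Gas6 0.16 ± 0.10 for PairFed against Vehicle. Of 6 smooth muscle markers, 5 and 3 were below 0. Myh11 stood at 1.41, 1.26 and 2.62 CPM in Vehicle, GDF15 and PairFed (-1.02 ± 0.40 for GDF15 against PairFed), while Notch3 had -0.78 ± 0.41 and Synpo2 -0.43 ± 0.34 for GDF15 against Vehicle, and Mcam 0.44 ± 0.36 for PairFed. Of 5 mesothelial markers, 4 and 5 were below 0, with Krt19 at -0.77 ± 0.33 and Wt1 at -0.64 ± 0.37 for PairFed and Gpm6a at -0.17 ± 0.29 for GDF15. Krt19 is also among the bile duct markers given above.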

How the data were processed

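Liver RNA of 15 wild-type mice was sequenced with a directional total RNA kit, per the labels' protocols. The authors deposited 1 table of whole-number estimated counts per gene. The submitters' processing notes name Salmon, DESeq2 and mm10 without their roles, and the transcript set and strand setting were not given in the sources used here. The deposited table held no gene with a sum below 5. Total counts of 8551557 to 12994187 per library set the precision, and counting error dominates below a few counts. The labels do not tie columns to single animals, so p-values measure the spread between these libraries.

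The estimated counts were tested with edgeR 4.0.16 in R 4.3.3. Genes were kept by filterByExpr by group, with a minimum count of 10 and a minimum total count of 15 (12274 of 15302). A kept gene could still have fewer counts in a library, as Mmp13 did with 3. Libraries were scaled by TMM. A robust quasi-likelihood fit over 15 libraries gave 3 contrasts, with Benjamini-Hochberg adjustment over all genes and a threshold of 0.05. A prior count of 2 was used only for log2 CPM, in the heat map, library medians and marker scores. SE is the absolute log2 fold change over the square root of F. The common biological coefficient of variation was 13.3%. Scripts were tested on simulated data. Alternatives were other scalings and filters, DESeq2 1.42.0, limma-voom 3.58.1, 1 surrogate variable (sva 3.50.0), a term for the deeper libraries, an endothelial score, subsets of libraries, and each library left out. Marker scores are mean log2 CPM minus the Vehicle mean.

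The 34 genes and the other lists were chosen with earlier results of these data known. All libraries' values are given for members with an unadjusted p below 0.05 and for 8 anchors (Col1a1, Col3a1, Col4a1, Acta2, Timp1, Lrat, Des, Pdgfrb). From each other list, the text names up to 2 genes with the smallest p in each comparison and every gene past the threshold; Tgfb1 was added after its values were seen. A few genes that this rule names are not reported here. Sequences are from RefSeq on GRCm38.p6.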

Additional observations from a re-analysis of the deposited data

Results flagged for a closer look

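In 8 of 102 groups of 5 libraries (34 genes in 3 groups), 1 library stood far from the other 4, with a gap to its nearest neighbour above 0.71 of the group's range; chance gives about 1 in 20. PairFed 2 was the low library for Col6a3 (17.2 CPM), Des (3.65 CPM) and Pdgfrb (13.3 CPM). Vehicle 4 was the low library for Ecm1 (68.9 CPM) and Reln (31.4 CPM), and GDF15 1 for Vim (16.5 CPM). Mmp13 had a high library in both Vehicle (Vehicle 1, 3.07 CPM) and PairFed (PairFed 5, 3.22 CPM).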

How the results depend on the processing

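No paired analysis was possible because the labels give the libraries no numbers that pair them across groups. Of 3102 gene results under the alternatives, 2961 kept direction and side of the threshold, 82 reversed, 31 lost and 28 gained a call; the cause was not tested. Calls over all genes ran from 134 to 642 for GDF15 against Vehicle and from 0 to 452 for PairFed against Vehicle. Counts below 10 limit the low genes, as for Mmp13 and Lox, and for Acta2 (7 counts) and Timp1 (9 counts) in GDF15 1.

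For GDF15 against Vehicle, 1 surrogate variable turned the list median to 0.097 and the log2 fold change of Col5a1 to 0.19, Col5a2 0.29, Col14a1 0.20, Col4a1 0.072, Col4a2 0.25, Lox 0.37, Loxl1 0.083, Loxl2 0.11, Tagln 0.11, Des 0.18, Vim 0.026, Pdgfra 0.30, Dcn 0.14, Lum 0.16, Fbn1 0.17, Sparc 0.079, Postn 0.38, Tgfbi 0.084, Thbs1 0.20, Reln 0.24, Mmp2 0.046, Gpm6a 0.11 and Krt19 0.22. Ccn2 turned to -0.014 with upper-quartile factors, -6.0e-05 at 10 CPM in 5 libraries, -0.073 with the depth term, -0.012 with the endothelial score and -0.13 in the shallower libraries. Des turned to 0.050 with limma-voom and 0.0045 with the endothelial score. Ecm1 turned to -0.0026 with the depth term and -0.047 in the shallower libraries.

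For PairFed against Vehicle, the surrogate variable gave a median of 0.075, Col4a1 0.26 and Acta2 0.20. The depth term gave Col4a1 0.18, Acta2 0.14, Lrat 0.57 and Des 0.085. Limma-voom gave Lrat 0.062, and the shallower libraries Mmp14 0.047, Lrat 0.12 and Mcam -0.095. With the endothelial score, 1 member passed. For GDF15 against PairFed, the surrogate variable gave Col1a1 0.16, and the depth term Timp1 0.030 and Des -0.15. The endothelial score gave a median of 0.051, Col1a1 0.20, Col3a1 0.068 and Lrat 0.028, and the shallower libraries Col1a1 0.069, Col3a1 0.0090 and Des -0.019.

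Leaving out 1 library moved the list median from -0.47 to -0.15 for GDF15 against Vehicle, from -0.29 to -0.048 for PairFed against Vehicle and from -0.25 to -0.013 for GDF15 against PairFed. For GDF15 against Vehicle, Des ran from -0.11 to 0.16, Pdgfra from -0.21 to 0.12, Postn from -0.29 to 0.11, Ccn2 from -0.24 to 0.38, Ecm1 from -0.048 to 0.18 and Reln from -0.20 to 0.092. For PairFed against Vehicle, Col4a1 ran from -0.17 to 0.096, Acta2 from -0.50 to 0.11 and Des from -0.23 to 0.037. For GDF15 against PairFed, Col1a1 ran from -0.24 to 0.11 and Lrat from -0.29 to 0.043.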
